A study of Mus musculus with 29 samples.

Results

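Paired-type homeobox factors and those of the sine oculis family (*Six3*, *Six6*) are transcription factors that bind DNA through a homeodomain, and several of them set up the eye field and later the cell types of the retina. The 9 genes described here were taken by name from an RNA-seq count table of 24062 genes: *Crx*, *Otx2*, *Otx1*, *Vsx1*, *Rax*, *Sebox*, *Pax6*, *Six3* and *Six6*. No measured value was part of the rule. All 9 were listed in the table, and 8 passed a filter on low counts. *Otx1* did not, with 1 read in 1 of 15 libraries.

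Their levels were compared between adult mouse bipolar cells, the interneurons that carry signals from photoreceptors to the inner retina, and sorted photoreceptors. Each of 5 populations had 3 RNA-seq libraries and 2 ATAC-seq libraries (an assay in which a transposase cuts open chromatin). All bipolar cells (pan-BC) came from Otx2-GFP+/- mice, in which 1 *Otx2* allele carries GFP. For RNA-seq the labels give these mice no other reporter, whereas for ATAC-seq they give Otx2-GFP+/- with Grm6-YFP+/+. ON-BC and OFF-BC were from Otx2-GFP+/- mice that were also Grm6-YFP+/+, with YFP marking ON-BC, and only OFF-BC were sorted a further time. Per the study, the ON cone bipolar type BC5D was probably absent from both sorts. Bipolar mice were at postnatal day 42 to 48. Rods were sorted from Nrl-eGFP mice, whose GFP is driven by the promoter of the rod gene *Nrl*. Photoreceptors of Nrl-eGFP mice that lacked *Nrl* (NrlKO) stood in for blue cones, since without *Nrl* cells that would be rods become like blue cones. Green cones, sorted by Opn1mw-GFP, had 2 ATAC-seq libraries in the count table and no RNA-seq. Photoreceptor libraries were from mice at day 56 and had been made for an earlier study, so class, age and study cannot be told apart in any comparison of bipolar cells with photoreceptors. In bulk libraries, fewer cells of a type and less RNA per cell cannot be told apart either.

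Homeodomains of this group recognise a TAAT core, and the bases that follow the core depend on a residue of the recognition helix. CRX, OTX1 and OTX2 have a lysine there and prefer TAATCC, while RAX, VSX1 and many other paired-type factors have a glutamine and prefer TAATTA or TAATTG. Factors of the sine oculis family have a homeodomain of their own class, and PAX6 has a paired domain besides its homeodomain. In the retina *Otx2* is needed for photoreceptor and bipolar fate, *Crx* for mature photoreceptor gene expression, *Rax* and *Six3* for the eye field, *Pax6* for progenitors and amacrine cells, and *Vsx1* for the maturation of some cone bipolar types.

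The libraries held 12329548 to 26266746 counted RNA-seq reads and 4176776 to 12345845 counted ATAC-seq reads. *Trpm1*, the transduction channel gene of ON bipolar cells, had 47907 to 59744 normalized counts (reads divided by a size factor of the library) in pan-BC and ON-BC, 5394 to 7567 in OFF-BC and 97.02 to 386 in photoreceptors. *Nrl* had 486 to 764 normalized counts in the NrlKO libraries and 11476 to 16599 in rods. Rod RNA was present in bipolar libraries, with the rod arrestin gene *Sag* in pan-BC at 4.83% of its rod mean. OFF-BC replicate 3 stood apart from the other OFF-BC libraries, with 55813 normalized counts of the cone opsin gene *Opn1sw* against 4477 and 4314.

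Regions of open chromatin near these genes carried many of the differences described below. The sequences of 7 regions that differed are shown for that reason, with that of the *Crx* start site, which was open in every population. Each ATAC-seq region was 200 bases long and was given to the gene with the nearest RefSeq start site (build GRCm38.p6). Distances run from that start site to the centre of the region, and negative ones are upstream. Where a gene has several start sites, the nearest can be an internal one, which is said below. The 60 regions so assigned comprised 14 at *Otx2*, 10 at *Rax*, 9 at *Six6*, 7 at *Pax6*, 6 at *Six3*, 5 at *Crx*, 5 at *Otx1*, 2 at *Sebox* and 2 at *Vsx1*. The sequences, from the RefSeq genome, are written 5′ to 3′ on the strand of the gene and leave out bases in RefSeq exons. Capitals mark the 3 motifs named above, on either strand, and GGATTA is TAATCC read on the other strand.
Sebox +1624 (chr11:78505082-78505237, plus strand): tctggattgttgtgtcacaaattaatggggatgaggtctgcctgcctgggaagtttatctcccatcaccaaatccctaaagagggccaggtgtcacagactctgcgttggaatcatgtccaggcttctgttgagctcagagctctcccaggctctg
Six6 -49 (chr12:72939734-72939881, plus strand): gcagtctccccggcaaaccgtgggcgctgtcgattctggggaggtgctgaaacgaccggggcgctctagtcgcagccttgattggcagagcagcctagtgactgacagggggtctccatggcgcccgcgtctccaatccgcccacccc
Six3 -47 (chr17:85620688-85620833, plus strand): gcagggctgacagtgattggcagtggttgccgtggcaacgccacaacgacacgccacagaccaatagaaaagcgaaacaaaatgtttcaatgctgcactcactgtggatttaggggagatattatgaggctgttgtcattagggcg
Vsx1 -29155 (chr2:150718193-150718392, minus strand): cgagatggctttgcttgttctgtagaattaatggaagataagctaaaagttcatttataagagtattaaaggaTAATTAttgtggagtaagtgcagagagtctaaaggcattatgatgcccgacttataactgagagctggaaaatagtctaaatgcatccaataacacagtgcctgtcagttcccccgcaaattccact
Vsx1 -23211 (chr2:150712249-150712448, minus strand): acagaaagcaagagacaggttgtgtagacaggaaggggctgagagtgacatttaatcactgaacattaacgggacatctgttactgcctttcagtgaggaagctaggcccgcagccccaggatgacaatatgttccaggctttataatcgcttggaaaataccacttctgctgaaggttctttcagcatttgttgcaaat
Crx -9 (chr7:15879956-15880064, minus strand): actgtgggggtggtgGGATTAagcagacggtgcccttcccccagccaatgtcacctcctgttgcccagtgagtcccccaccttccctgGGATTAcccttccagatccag
Otx2 +53637 (chr14:48608998-48609197, minus strand): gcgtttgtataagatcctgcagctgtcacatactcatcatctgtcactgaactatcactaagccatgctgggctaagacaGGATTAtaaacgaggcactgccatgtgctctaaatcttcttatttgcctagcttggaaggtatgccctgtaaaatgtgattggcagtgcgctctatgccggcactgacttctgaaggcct
Otx1 -15531 (chr11:22017083-22017282, minus strand): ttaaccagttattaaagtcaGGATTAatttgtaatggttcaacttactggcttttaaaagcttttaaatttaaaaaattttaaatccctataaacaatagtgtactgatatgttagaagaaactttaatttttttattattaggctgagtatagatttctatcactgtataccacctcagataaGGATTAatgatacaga

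Matches stood in 4 of these sequences, those of *Crx*, *Otx2*, *Otx1* and the farther *Vsx1* region. TAATCC was found in 16 of the 60 regions (26.7%), against 21.8% of all 110715 regions, and 7 of those 16 were at *Otx2*. TAATTA was found in 8 (13.3%, against 5.20% of all regions), of which 5 were at *Otx2*. TAATTG was found in 7 (11.7%, against 6.88%). Both strands were searched, TAATTA reads the same on both, and neighbouring motifs can share the TAAT letters. A match says only that the letters are there.

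In the RNA-seq data a gene was called when limma placed its change beyond 1 on the log2 scale with an adjusted p below 0.05 over all 14024 genes tested. Log2 fold changes are on the log2(normalized count + 1) scale, which understates the change of low genes, and are given with their standard error. Between pan-BC and rods, 5 of the 8 tested factors were higher in pan-BC (*Vsx1*, *Sebox*, *Pax6*, *Six3* and *Six6*), as were 27.8% of all genes, and 2 were lower (*Crx* and *Rax*), as were 15.8%. Against blue cones 4 were higher in pan-BC (*Vsx1*, *Sebox*, *Pax6* and *Six3*, beside 22.7% of all genes) and 3 were lower (*Crx*, *Rax* and *Six6*, beside 13.7%). Between ON-BC and OFF-BC, 1 factor was higher in ON-BC (*Sebox*, beside 2.95% of all genes) and 0 were lower (3.6% of all genes). Between rods and blue cones 2 were lower in rods (*Six3* and *Six6*, beside 11.3% of all genes) and 0 were higher (4.63%). The median log2 fold change of the 8 factors was 3.26 for pan-BC against rods and 1.10 against blue cones, beside 0.21 and 0.16 over all genes. *Otx2*, whose locus was used for the bipolar sort, was called in none of the 4 comparisons, so these counts are the same without it. Scaling to the library total moved the median of all genes by 0.35 against rods and by 0.28 against blue cones.

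**Figure D1:**
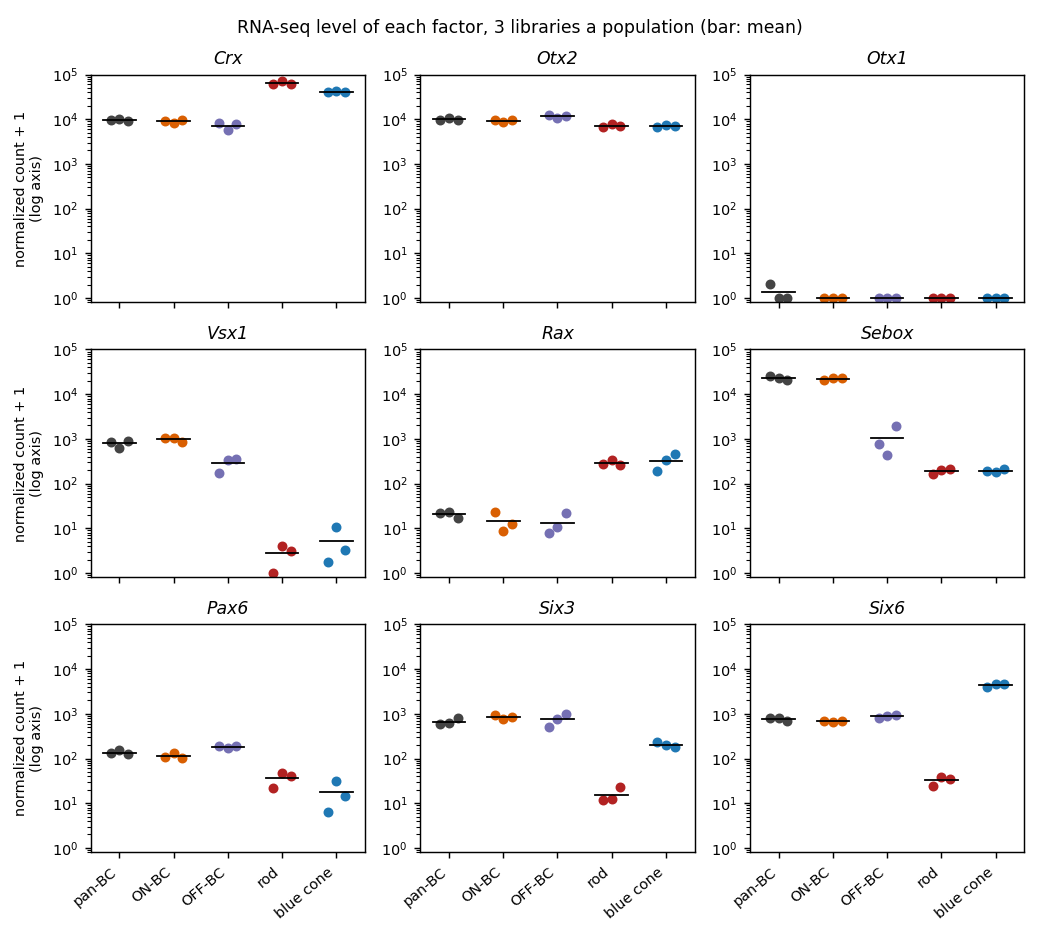
RNA-seq level of the 9 genes, as normalized count + 1 on a log axis, in 5 populations, with points for the 3 libraries of a population and a line at their mean. *Sebox* is at 20898 or more in pan-BC and ON-BC and at 439.7 to 1918 in OFF-BC, and *Six6* is highest in blue cones.

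**Figure D2:**
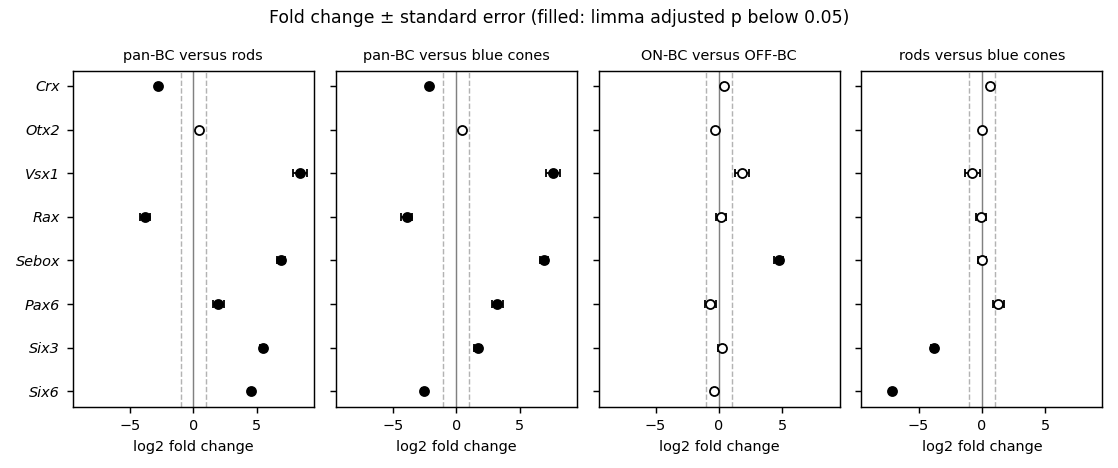
Log2 fold change and its standard error for the 8 tested genes in 4 comparisons, positive where the population named before "versus" is higher, with filled points for genes that passed the limma test beyond a change of 1. *Otx2* is open in all 4 comparisons.

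Per kb of exon, the scale on which different genes can be compared, the order of the factors differed between populations. Pan-BC and ON-BC differed only in the order of *Six3* and *Six6*, which overlapped in pan-BC. In pan-BC *Sebox* had the highest mean at 18029 normalized counts per kb, followed by *Otx2* at 3697 and *Crx* at 3165. *Vsx1* (223 per kb), *Six6* (188) and *Six3* (182) came next and overlapped as neighbours in that order, above *Pax6* at 28.4 and *Rax* at 11.9. ON-BC had the same 3 leading factors, although *Otx2* and *Crx* overlapped there. In OFF-BC *Otx2* led at 4336 per kb, above *Crx* at 2371 and *Sebox* at 808. *Crx* led in rods at 21506 per kb and in blue cones at 13720. After *Otx2*, the next factor was *Six6* in blue cones, at 1095 per kb, and *Rax* in rods, at 173 and overlapping with *Sebox* at 148.

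*Crx* (chr7:15865947-15879955, minus strand) encodes the cone-rod homeobox factor, which activates many phototransduction genes. Its normalized counts were 60823, 71611 and 62285 in rods and 39867, 43789 and 40567 in blue cones. Pan-BC had 9509, 9876 and 9272, ON-BC 9266, 8334 and 9848, and OFF-BC 8031, 5770.4 and 7668. All photoreceptor libraries thus lay above all bipolar libraries, rods lay above blue cones without overlap, pan-BC and ON-BC overlapped, and OFF-BC lay below them. The log2 fold change was -2.76 ± 0.14 (limma adjusted p = 5.22e-09) for pan-BC against rods and -2.12 ± 0.14 (limma adjusted p = 2.50e-06) for pan-BC against blue cones. For rods against blue cones it was 0.65 ± 0.14 (limma adjusted p = 1), which did not pass beyond 1, although it differed from no change (limma adjusted p = 0.00091). *Crx* in pan-BC was at 14.7% of its rod mean, where *Sag* was at 4.83%. In OFF-BC the same shares were 11.03% for *Crx* and 2.06% for *Sag*.

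The *Crx* start site was open in all 6 populations, with 561 and 527 normalized ATAC-seq counts in rods and 162 to 304 in the other libraries, and its region was called in none of the 4 comparisons. Regions at -1038, upstream of the gene, and at -3270, measured from an internal start site and lying in an intron of the longer transcript, were more restricted. At -3270 rods had 167 and 150.4 normalized counts, pan-BC 28.00 and 22.2, blue cones 20.7 and 26.02 and green cones 62.2 and 33.8. Rods lay above every other library there, with log2 fold changes of -2.62 ± 0.56 (limma adjusted p = 0.0106) for pan-BC against rods and 2.72 ± 0.56 (limma adjusted p = 0.0348) for rods against blue cones. The former call was lost without pan-BC replicate 2 (limma adjusted p = 0.0641) or rod replicate 1 (0.0555). The latter was lost without any 1 of the pan-BC, rod and blue cone libraries, at adjusted p from 0.0525 to 0.182. A region at +12505 from the internal start site, past the end of the gene and in no transcript, went the other way. Pan-BC had 52.8 and 52.5 there and blue cones 5.18 and 5.78, a log2 fold change of 3.05 ± 0.43 (limma adjusted p = 0.000582).

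*Otx2* (chr14:48657677-48667644, minus strand) encodes a factor that acts upstream of *Crx* in photoreceptor development. GFP from this locus was the sort signal of the bipolar libraries, whose mice carried it on 1 allele, so its levels between classes are a description. OFF-BC had 12264, 10858 and 11908 normalized counts, pan-BC 9810.1, 10646 and 9409, and ON-BC 9451, 8743 and 9750.3. Rods had 6796, 7638 and 7173, and blue cones 6538, 7419.7 and 7143. OFF-BC was highest without overlap, pan-BC and ON-BC overlapped, and rods and blue cones overlapped below them. ON-BC against OFF-BC, both sorted on the same reporter, gave a log2 fold change of -0.33 ± 0.10 (limma adjusted p = 1). *Otx2os1*, a noncoding transcript of the opposite strand, had 2037 to 2535 normalized counts in bipolar libraries and 864 to 1103 in photoreceptors. Both photoreceptor populations had less of it than pan-BC (limma adjusted p = 0.0341 for rods and 0.0035 for blue cones). Its gene does not overlap *Otx2*, and whether its change differed from that of *Otx2* was not tested.

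Of the 14 regions nearest to *Otx2*, 4 were lower in pan-BC than in rods, as were 11.2% of all regions tested, and 0 were higher (40.3%). Against blue cones 3 were lower in pan-BC (7.13%) and 1 higher (28.8%). In ON-BC 1 was lower than in OFF-BC (2.8%), and in rods 2 were lower than in blue cones (8.56%). The regions described at +33129, +53637 and +68850, measured from an internal start site, lie past the end of the gene, in no transcript. At +53637 rods had 408 and 425 normalized counts, blue cones 167 and 175, green cones 148 and 99.99 and pan-BC 122 and 112. Rods lay above all other libraries, and the log2 fold change of pan-BC against rods was -1.82 ± 0.22 (limma adjusted p = 0.00218). At +68850 the highest values were instead those of blue cones, 99.7 and 163, with 24.9 and 29.8 in rods and a rod against blue cone log2 fold change of -2.19 ± 0.35 (limma adjusted p = 0.021). That call was lost without rod replicate 1 (limma adjusted p = 0.133), rod replicate 2 (0.0513) or blue cone replicate 2 (0.235). At +33129 OFF-BC had 17.5 and 32.1 normalized counts and ON-BC 0 and 4.39, beside 41.3 and 52.2 in rods and 67.3 and 28.9 in blue cones. ON-BC and OFF-BC did not overlap at this region, with a log2 fold change of -3.41 ± 0.67 (limma adjusted p = 0.0205). The call was lost in 5 of 23 alternatives, with a pseudocount of 8 (limma adjusted p = 0.269), with DESeq2 and a threshold of 1 (0.182) and without ON-BC replicate 1 (limma adjusted p = 0.244), OFF-BC replicate 1 (0.0558) or OFF-BC replicate 2 (0.173). The region at the outermost start site, +38, was called in none of the 4 comparisons. It had 129.6 to 195 in pan-BC and ON-BC and 23.9 to 77.9 in the other libraries. At +76 from an internal start site, rods had 70.9 and 95.5 and pan-BC 24.0 and 8.55. That region was called lower in pan-BC than in rods, at -2.43 ± 0.63 (limma adjusted p = 0.0363), a call lost in 8 of 22 alternatives.

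*Otx1* (chr11:21994764-22001651, minus strand) encodes a close relative of OTX2, and almost no RNA of it was counted. Pan-BC replicate 1 had 1 read and the other 14 libraries had 0, where a count of 0 allows up to 3 reads in a library, for counting error only. Regions nearest to its start site were open nonetheless. At -15531, inside the neighbouring gene *Ehbp1*, ON-BC had 20.9 and 35.1 normalized counts and pan-BC 22.4 and 22.2, while OFF-BC and rods had 0 in all 4 libraries. ON-BC was at least 8.05-fold higher than OFF-BC, set against a floor of 3 reads per library, and the difference was called (limma adjusted p = 0.00246). At -77262 blue cones had 60.9 and 81.7, green cones 38.4 and 43.7 and rods 0 and 5.42, with a rod against blue cone log2 fold change of -4.82 ± 0.69 (limma adjusted p = 0.000527). Which gene such regions serve is not shown by their distance.

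*Vsx1* (chr2:150680702-150689137, minus strand) encodes the visual system homeobox factor of cone bipolar cells. ON-BC had 1049, 1028 and 847 normalized counts, pan-BC 851, 631 and 901, and OFF-BC 175, 335 and 351. Rods had 0, 3.07 and 2.16, and blue cones 0.752, 9.86 and 2.22. All 9 bipolar libraries were above the photoreceptors, ON-BC and pan-BC overlapped, and OFF-BC lay apart below them. Log2 fold changes were 8.39 ± 0.56 (limma adjusted p = 2.50e-09) for pan-BC against rods and 7.64 ± 0.56 (limma adjusted p = 1.95e-08) for pan-BC against blue cones. With so few photoreceptor reads the size depended on the settings, from 6.36 to 8.87 against rods. ON-BC against OFF-BC gave 1.82 ± 0.56 (limma adjusted p = 0.749), which did not pass. The spread in that test is shared with the photoreceptor libraries, where the SD of *Vsx1* on the log2 scale was 1.08 in rods and 1.34 in blue cones, against 0.17 in ON-BC and 0.56 in OFF-BC. With the ON-BC and OFF-BC libraries alone, an alternative chosen after seeing the data, the limma adjusted p was 0.0794. Over all 15 libraries, edgeR on the recovered reads, also against a change of 1, gave an adjusted p of 0.013.

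Both regions nearest to *Vsx1* lay upstream, in no transcript, and were open in bipolar cells. At -29155 ON-BC had 71.7 and 57.1 normalized counts, pan-BC 41.6 and 67.8 and OFF-BC 12.1 and 12.7, while rods and blue cones had 0 in all 4 libraries. At -23211 ON-BC had 53.8 and 57.1, pan-BC 36.01 and 50.2 and OFF-BC 35.03 and 30.2, and no photoreceptor library had more than 1.54. Pan-BC was at least 25.1-fold higher than rods at -29155 and at least 19.7-fold higher at -23211, against the floor of 3 reads per library. Both differences were called (limma adjusted p = 9.10e-06 and 2.12e-05), as were those from blue cones. ON-BC values lay above OFF-BC values at both regions, but neither difference was called.

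*Sebox* (chr11:78503513-78505081, plus strand) encodes a paired-like homeodomain factor first described in skin, embryo, brain and oocytes. Pan-BC had 25061, 23543 and 20898 normalized counts and ON-BC 21081, 23252 and 22798. OFF-BC had 757, 439.7 and 1918, rods 161, 197 and 212, and blue cones 187, 178 and 207. Pan-BC and ON-BC overlapped at the top, OFF-BC lay far below them and still above photoreceptors, and rods and blue cones overlapped. The log2 fold change of ON-BC against OFF-BC was 4.70 ± 0.33 (limma adjusted p = 3.63e-07), and it was called in all 27 alternatives tried, at 4.21 to 5.27. Without OFF-BC replicate 3 it was 5.27 (limma adjusted p = 1.23e-10). Pan-BC exceeded rods by 6.93 ± 0.33 (limma adjusted p = 3.66e-11) and blue cones by 6.91 ± 0.33 (limma adjusted p = 1.13e-10). Among the OFF-BC libraries *Sebox* was highest in replicate 3, as were the ON-BC genes *Grm6* (593 normalized counts, against 145 and 64.9) and *Isl1* (1329, against 343 and 162). The part of ON-BC RNA in the OFF-BC level of *Sebox* was not tested.

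The 2 regions of *Sebox* followed different orders. At +1624, centred past the end of the gene with 44 of its 200 bases in the last exon, ON-BC had 47.8 and 81.99 normalized counts, pan-BC 56.01 and 47.3, OFF-BC 5.39 and 4.87, and the photoreceptor libraries 1.36 to 8.45. ON-BC and pan-BC thus lay above all other libraries, as they did for the RNA. The log2 fold change was 3.38 ± 0.64 (limma adjusted p = 0.0175) for ON-BC against OFF-BC and 4.08 ± 0.64 (limma adjusted p = 0.000291) for pan-BC against rods. The former call was lost without ON-BC replicate 2 (limma adjusted p = 0.154), OFF-BC replicate 1 (0.0714) or OFF-BC replicate 2 (0.071). At the start site, -56, rods had the highest values, 70.9 and 66.4, above 20.5 to 38.8 in pan-BC and ON-BC and 10.8 and 10.7 in OFF-BC, although rods and blue cones had the least RNA. That region was called in none of the 4 comparisons.

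*Rax*, on chromosome 18 and the minus strand, encodes the retina and anterior neural fold homeobox factor. Blue cones had 186, 335 and 451 normalized counts and rods 272, 333 and 260.4. Pan-BC had 21.3, 22.2 and 15.9, ON-BC 21.7, 7.84 and 11.3, and OFF-BC 6.71, 9.61 and 20.97. Every photoreceptor library was above every bipolar library, rods and blue cones overlapped, and so did the 3 bipolar populations. Log2 fold changes of pan-BC were -3.80 ± 0.42 (limma adjusted p = 1.14e-05) against rods and -3.89 ± 0.42 (limma adjusted p = 1.22e-05) against blue cones. *Rax* was at 6.86% of its rod mean in pan-BC, where *Sag* was at 4.83%. The shares were 4.72% and 0.987% in ON-BC, and 4.31% and 2.06% in OFF-BC. Of its blue cone mean *Rax* in OFF-BC was at 3.84%. The cone genes *Opn1sw*, *Arr3* and *Gnat2* were there at 1.76%, 3.87% and 10.5% of their blue cone means. For *Opn1sw* and *Arr3* the OFF-BC mean rests mostly on replicate 3. *Opn1sw* had 55813 normalized counts there, against 4477 and 4314, and *Arr3* had 7782, against 782 and 1294. *Rax* was also highest in that library, with 20.97. The part of photoreceptor RNA in the bipolar levels of *Rax* was not tested.

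At *Rax*, accessibility was called between ON-BC and OFF-BC where RNA was not. At the start site, -7, rods had 452 and 482 normalized counts, blue cones 311 and 303 and green cones 294 and 235. OFF-BC had 78.1 and 63.3, pan-BC 25.6 and 19.4, and ON-BC 14.9 and 16.1. OFF-BC thus lay above the other bipolar libraries and below all photoreceptors, with an ON-BC against OFF-BC log2 fold change of -2.11 ± 0.23 (limma adjusted p = 0.00377). DESeq2 with a threshold of 1 did not call it (adjusted p = 0.0591). At -7277 the 2 populations differed in the same direction, with 113 and 116 in OFF-BC, 8.96 and 16.1 in ON-BC, 37.6 and 36.5 in pan-BC, and 229.6 to 349.7 in photoreceptors. The log2 fold change there was -3.15 ± 0.25 (limma adjusted p = 4.80e-05). In RNA it was 0.15 ± 0.42 (limma adjusted p = 1). Cone RNA also differed between these populations in the RNA-seq libraries, with the cone gene *Arr3* at 96.4 to 229 normalized counts in ON-BC and 782 to 7782 in OFF-BC. Its part in the accessibility of *Rax* was not tested.

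*Pax6* (chr2:105668896-105698410, plus strand) encodes a factor that persists in amacrine, horizontal and ganglion cells of the adult retina. OFF-BC had 189, 173 and 189.8 normalized counts, pan-BC 132, 150.3 and 124, and ON-BC 107, 132 and 102. Rods had 21.3, 47.1 and 38.9, and blue cones 5.26, 31.1 and 13.3. OFF-BC was highest without overlap, pan-BC and ON-BC overlapped, and all bipolar libraries were above the photoreceptors. ON-BC against OFF-BC gave a log2 fold change of -0.70 ± 0.43 (limma adjusted p = 1), which did not pass. Pan-BC exceeded blue cones by 3.25 ± 0.43 (limma adjusted p = 0.000185). Against rods the log2 fold change was 1.96 ± 0.43 (limma adjusted p = 0.0471), a call that 14 of 25 alternatives lost. Leaving out any pan-BC, ON-BC or OFF-BC library, rod replicate 1 or rod replicate 3 ended it, at limma adjusted p from 0.0543 to 0.197, and so did a pseudocount of 0.5, no filter on low counts, and TMM scaling.

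Amacrine genes were measured beside *Pax6*, since amacrine cells express it. *Tfap2b*, an amacrine factor, had 157 to 258 normalized counts in OFF-BC, 90.4 to 93.8 in pan-BC, 25.8 to 83.3 in ON-BC and 0 to 11.8 in photoreceptors. *Gad1*, of GABA-releasing cells, had 55.1 to 71.3 in pan-BC and 22.7 to 65.6 in ON-BC, against 26.4 to 29.1 in OFF-BC and 0 to 5.18 in photoreceptors. *Tfap2b* thus followed the order of *Pax6* and *Gad1* did not. Summed over 8 amacrine markers, OFF-BC had 735 to 939.5 normalized counts, pan-BC 440.5 to 465, ON-BC 227 to 355, rods 2068 to 2427 and blue cones 1357 to 1594. Of these markers *Slc6a9*, a glycine transporter gene, had 1337 to 2427 in photoreceptors, 462 to 638 in OFF-BC, 262 to 278 in pan-BC and 128 to 187 in ON-BC. The defining gene *Chat* was at 0 in OFF-BC and *Slc18a3* in pan-BC, while 3 of the 8 markers were at 0 in rods and 4 in blue cones. The part of amacrine RNA in the *Pax6* levels was not tested. Transcripts of *Elp4* and *Pax6os1* overlap the ends of *Pax6* on the opposite strand, and reads of such partners cannot be told apart without strand.

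Accessibility at *Pax6* was called higher in pan-BC than in rods at 4 of 7 regions, as at 40.3% of all regions tested. Of these, all measured from internal start sites, 2 were in introns of *Pax6* (-305 and +5280) and 2 past its end, in introns of *Elp4*. The latter calls, at +105373 and +40150, were lost without pan-BC replicate 2 (limma adjusted p = 0.09 and 0.0539), and that at +105373 also with a pseudocount of 8 (0.054). At -305 ON-BC had 88.1 and 83.5 normalized counts, pan-BC 64.8 and 86.1, OFF-BC 21.6 and 33.1, rods 3.12 and 4.74, blue cones 14.2 and 22.4 and green cones 38.4 and 23.9. ON-BC and pan-BC lay above all others, which is not the order of the RNA, where OFF-BC was highest. Pan-BC exceeded rods there by 3.96 ± 0.42 (limma adjusted p = 6.94e-06). A region at +5280 had its highest values in OFF-BC, 80.8 and 52.6, with 1.56 and 5.42 in rods.

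*Six3* (chr17:85620834-85626191, plus strand) encodes a sine oculis family factor of the eye field and forebrain. ON-BC had 938, 753 and 852 normalized counts, OFF-BC 519, 752 and 1009.7, and pan-BC 583, 619 and 806. Blue cones had 235, 200.3 and 178, and rods 10.7, 11.3 and 21.6. The 3 bipolar populations overlapped, blue cones lay below them, and rods lay lower still without overlap. Pan-BC exceeded rods by 5.49 ± 0.26 (limma adjusted p = 6.17e-11) and blue cones by 1.70 ± 0.26 (limma adjusted p = 0.0216), the latter lost without pan-BC replicate 3 (limma adjusted p = 0.0943) or blue cone replicate 3 (0.0698). Rods against blue cones gave -3.78 ± 0.26 (limma adjusted p = 1.11e-07). *Six3os1*, a noncoding transcript of the opposite strand, had 362 to 881 normalized counts in bipolar libraries, 11.6 to 22.5 in rods and 14.1 to 20.3 in blue cones, so that rods and blue cones overlapped.

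The *Six3* start site was likewise called between ON-BC and OFF-BC where the RNA was not. At -47 ON-BC had 157 and 161 normalized counts and pan-BC 165 and 155. OFF-BC had 29.6 and 21.4, rods 19.5 and 19.7, blue cones 47.9 and 42.6 and green cones 39.96 and 49.3. The log2 fold change of ON-BC against OFF-BC was 2.61 ± 0.29 (limma adjusted p = 0.00117), and it was called in all 23 alternatives tried. In RNA it was 0.20 ± 0.26 (limma adjusted p = 1). Pan-BC exceeded rods at this region by 2.97 ± 0.29 (limma adjusted p = 9.26e-06). The other 5 regions of *Six3*, from -503 to +25109, were called in none of the 4 comparisons.

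*Six6* (chr12:72939882-72944899, plus strand) encodes the relative of SIX3 that is needed for eye growth and retinal progenitors. Blue cones had 3976, 4574 and 4653 normalized counts and rods 23.3, 37.9 and 33.5. Between them lay OFF-BC with 799, 903 and 950.1, pan-BC with 799, 787 and 678, and ON-BC with 694, 652 and 677. Blue cones and rods were the extremes, pan-BC and ON-BC overlapped, and the lowest OFF-BC library was level with the highest pan-BC library. The mean in blue cones was 139 times that in rods, with a rod against blue cone log2 fold change of -7.10 ± 0.15 (limma adjusted p = 3.97e-15). Pan-BC against rods gave 4.56 ± 0.15 (limma adjusted p = 1.21e-12) and against blue cones -2.54 ± 0.15 (limma adjusted p = 9.84e-08). Relative to blue cones, the mean of *Six6* was 20.1% in OFF-BC, 17.1% in pan-BC and 15.3% in ON-BC. The cone genes *Opn1sw*, *Arr3* and *Gnat2* were at 3.31%, 3.46% and 5.6% of their blue cone means in pan-BC. In OFF-BC they were at 1.76%, 3.87% and 10.5%, where the means of *Opn1sw* and *Arr3* rest mostly on replicate 3. Another cone gene, *Gngt2*, had 18242 to 29616 normalized counts in blue cones, against 9131 to 14168 for OFF-BC, 4098 to 4558 for pan-BC and 1049 to 1249 for ON-BC. The part of cone RNA in the bipolar levels of *Six6* was not tested. The neighbouring gene *4930447C04Rik*, on the opposite strand, had 4614 to 7359 normalized counts in blue cones, 2323 to 2839 in bipolar libraries and 51.4 to 70.2 in rods, the same order of classes.

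At several regions of *Six6* rods lay apart from both cone populations. At the start site, -49, blue cones had 400.2 and 337 normalized counts, green cones 181 and 221, and rods 16.4 and 29.8. Pan-BC had 68.8 and 82.1, ON-BC 41.8 and 79.1, and OFF-BC 80.8 and 88.6. Green cones thus lay below blue cones and above every rod and bipolar library. The log2 fold change was -3.99 ± 0.31 (limma adjusted p = 1.30e-06) for rods against blue cones and -2.27 ± 0.31 (limma adjusted p = 0.00171) for pan-BC against blue cones. At +1076, in the intron, rods had 1.56 and 1.36, whereas the other 10 libraries had 27.7 to 83.5. Pan-BC exceeded rods there by 4.80 ± 0.36 (limma adjusted p = 9.51e-08). At +31675, past the end of the gene, the cones stood above the rest, blue cones with 49.2 and 44.8 and green cones with 79.1 and 101, against 0 to 22.4 elsewhere. Pan-BC against blue cones gave -3.52 ± 0.79 (limma adjusted p = 0.00912), a call lost without pan-BC replicate 1 (limma adjusted p = 0.101).

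**Figure D3:**
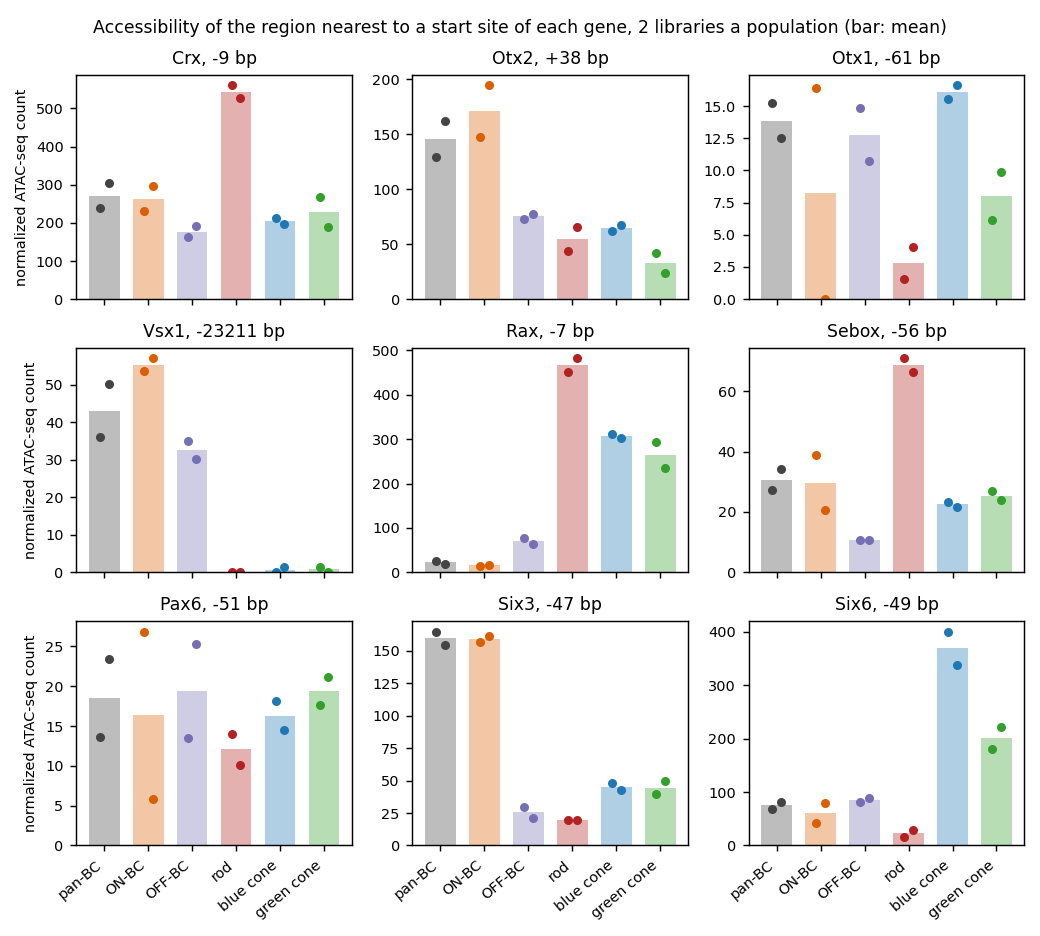
Normalized ATAC-seq counts at the region nearest to a start site of each gene in 6 populations, with points for the 2 libraries of a population and bars for their mean. The *Six3* region at -47 is highest in pan-BC and ON-BC, and the *Six6* region at -49 is highest in the 2 cone populations.

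Across all 60 regions, 13 were called higher in pan-BC than in rods (beside 40.3% of all 108448 regions tested) and 11 lower (11.2%). Against blue cones 9 were higher in pan-BC (28.8%) and 11 lower (7.13%). Between ON-BC and OFF-BC 3 were higher in ON-BC (4.58%), at *Sebox*, *Six3* and *Otx1*, and 3 were lower (2.8%), of which 2 were at *Rax* and 1 at *Otx2*. Between rods and blue cones 2 were higher in rods (1.46%), both at *Crx*, and 7 were lower (8.56%). Of these 9 calls the one at *Crx* -1038 was lost in 11 of 22 alternatives. Calls between rods and blue cones numbered 3 without blue cone replicate 2, 4 without rod replicate 1 and 5 without blue cone replicate 1, and the 20 between pan-BC and blue cones fell to 12 without pan-BC replicate 2 and to 13 without pan-BC replicate 1 or blue cone replicate 2. Of the 24 regions called between pan-BC and rods, the 5 at *Rax* were lower in pan-BC and the 4 at *Pax6* higher, as was the RNA of those genes. *Otx2* had 4 regions lower and 0 higher, with its RNA not called.

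**Figure D4:**
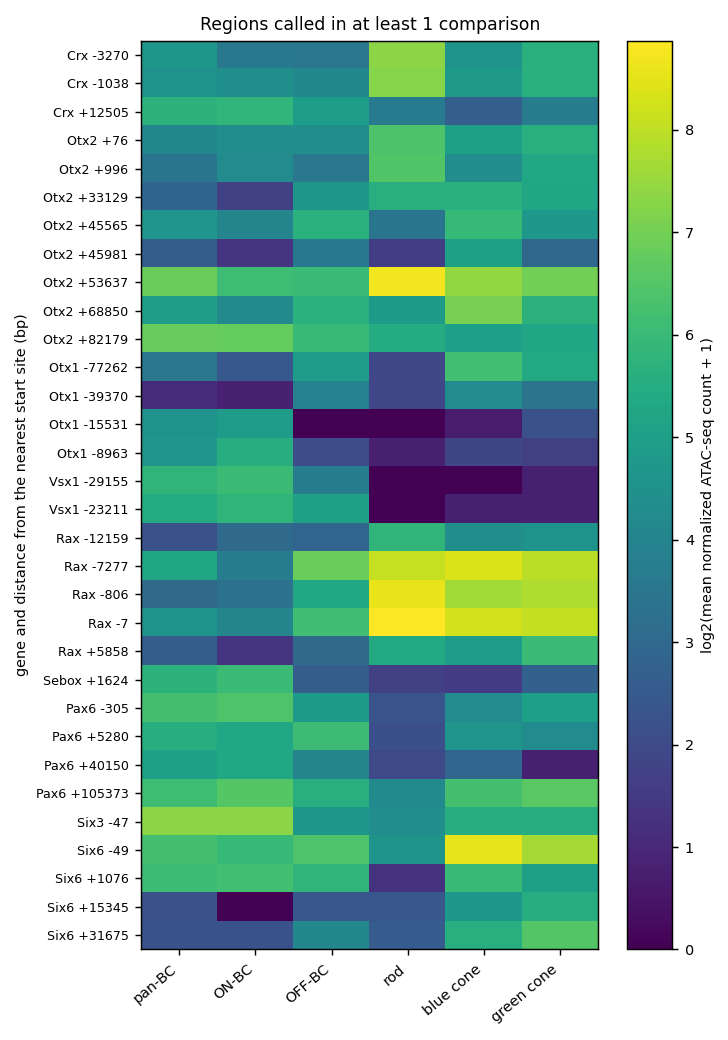
Accessibility, as log2(mean normalized ATAC-seq count + 1), of regions called in at least 1 comparison, with a row for each region, named by gene and distance from the nearest start site in bases, and a column for each population. *Rax* rows are highest in the photoreceptor columns, and *Vsx1* rows are lowest there.

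Relatives and partners of *Six3*, *Six6* and *Pax6* were listed by family. Of 17 other sine oculis family genes and cofactors 12 passed. Against rods, 7 of them were higher in pan-BC (27.8% of all genes were) and 2 lower (15.8%), with a median log2 fold change of 2.27, beside 0.21 over all genes. Those higher included *Tle6*, of the Groucho family of corepressors, with 2442 to 2944 normalized counts in pan-BC and 7.17 to 29.2 in rods. Against blue cones 6 were higher in pan-BC (22.7% of all genes) and 3 lower (13.7%), and 3 were lower in rods than in blue cones (11.3%). *Eya1*, a phosphatase and coactivator of sine oculis family proteins, had 2417 to 2848 normalized counts in blue cones, 9.70 to 18.4 in rods and 4.47 to 36.7 in bipolar libraries. Blue cones stood far above all other libraries, as they did for *Six6*, and the rod against blue cone log2 fold change of *Eya1* was -7.50 ± 0.44 (limma adjusted p = 2.21e-09). *Dach1*, another cofactor, was the gene of this list called between ON-BC and OFF-BC, with 139.5 to 188 in ON-BC and 984 to 1080.1 in OFF-BC.

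Known targets of CRX and OTX2, 13 genes that encode mostly phototransduction proteins, all passed the filter. In pan-BC 7 were lower than in rods (15.8% of all genes were) and 3 higher (27.8%), with a median log2 fold change of -3.36, beside 0.21 over all genes. Against blue cones 9 were lower in pan-BC (13.7%) and 3 higher (22.7%), with a median of -3.61, beside 0.16. Between ON-BC and OFF-BC 5 were higher in ON-BC (2.95% of all genes) and 5 lower (3.6%). Of these 13 genes 9 are also among the rod, cone or bipolar markers used to check the sorts. Of 7 listed genes on the opposite strand 4 passed. In pan-BC 3 of them were higher than in rods (27.8% of all genes were) and 1 lower (15.8%). The lower one was *Crxos*, with 74.6 to 87.2 normalized counts in pan-BC, 480.3 to 743 in rods and 2139.9 to 2760.2 in blue cones.

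The genes whose level pattern over the 15 libraries was most like that of each factor are given by Pearson's r of log2(normalized count + 1), as a description, since the libraries fall into 5 populations. *Crx* was most like *Tmem136* (r = 0.996) and *Uckl1* (0.996), and *Otx2* most like *Snrpa1* (0.984) and *Ubl5* (0.983). The nearest to *Vsx1* were *Drd1a* (0.993) and *4933428G20Rik* (0.989), and to *Rax* they were *Jam2* (0.989) and *Hk2* (0.983). *Sebox* was followed by *Gli2* (0.995) and *Lin7a* (0.994), and the mean normalized counts of *Lin7a* were 16382 in ON-BC, 427 in OFF-BC and 12478 in pan-BC. For *Pax6* the genes were *Abcg2* (0.969) and *Calb2* (0.968), the lowest r of the 8. *Six3* was most like *A230050P20Rik* (0.994) and *Zfp275* (0.994), and *Six6* most like *Elovl6* (0.996) and *Riiad1* (0.995).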

How the data were processed

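RNA-seq and ATAC-seq were measured in sorted retinal cells. Per the study's methods, the authors aligned RNA-seq reads to GRCm38/mm10 with STAR and counted them with HTSeq on RefSeq genes. They aligned ATAC-seq reads with Bowtie2, removed duplicates, kept nucleosome-free fragments and called peaks with MACS2. The deposited tables hold a signal, normalized counts, that is, read counts divided by 1 size factor per library. Whole reads were recovered from them (100% of values above 0, within 0.01 of a read). Strand use in counting is not given in the sources used here. Peak lists were not used, nor were the double-sorted green cones, which have only such lists here.

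Filtering with filterByExpr of edgeR left 14024 of 24062 genes and 108448 of 110715 regions. Log2(normalized count + 1) was fitted over all 15 RNA-seq or 12 ATAC-seq libraries and tested with limma (treat, with trend) beyond a log2 fold change of 1, with Benjamini-Hochberg adjustment. A feature with an adjusted p below 0.05 was called. The scripts were tested on simulated data. On the recovered reads, edgeR against the same change called 6722, 5768, 1226 and 2741 of all genes (pan-BC against rods, pan-BC against blue cones, ON-BC against OFF-BC, rods against blue cones), where limma called 6112, 5092, 919 and 2231. R 4.3.3, limma 3.58.1, edgeR 4.0.16 and DESeq2 1.42.0 were used. All 9 genes were named in every comparison, with the 2 genes most like each by Pearson's r. The 9 genes and the lists were chosen with earlier results of these data known. The study calls its replicates biological, and those of ON-BC and of OFF-BC differ in age. The labels do not say that each replicate is a separate mouse, so p-values measure the spread between these samples. How much of that spread is technical was not tested. Some genes and sequences are not reported here. No 2 libraries of a population agreed within sampling noise.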

Additional observations from a re-analysis of the deposited data

Results flagged for a closer look

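Green cones entered no comparison, because they had no RNA-seq libraries. Their values at the 8 start-site regions examined are given as a description. The mean normalized ATAC-seq counts of the 2 green cone libraries were 228 at *Crx* (-9 bases), 33.1 at *Otx2* (+38), 8.00 at *Otx1* (-61), 265 at *Rax* (-7), 25.4 at *Sebox* (-56), 19.4 at *Pax6* (-51), 44.6 at *Six3* (-47) and 201 at *Six6* (-49). The *Six6* value lay between the means of blue cones (369) and rods (23.1).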

How the results depend on the processing

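Alternatives changed the pseudocount, the filter, the scaling, the test and the libraries, and a fit on the ON-BC and OFF-BC libraries alone was added after seeing the data. Over single genes, 777 of the values kept their direction and their side of the threshold, 16 lost the call, 14 gained it and 9 changed sign. Over single regions, 1171 kept both, 133 lost the call and 0 changed sign. In ATAC-seq, leaving out 1 library leaves its population with 1, which is then assumed to vary like the other groups. The cause of the changes was not tested, except that a test against no change asks for less than a change of 1.

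Members called between ON-BC and OFF-BC were 1 in the fit reported, 3 with limma against no change, 2 with edgeR against a change of 1 and 4 with the edgeR F test against no change. Members called between rods and blue cones were 2, and 4 with either test against no change. Regions of members called were 24 (pan-BC against rods), 20 (pan-BC against blue cones), 6 (ON-BC against OFF-BC) and 9 (rods against blue cones). With limma against no change they were 41, 33, 23 and 26, and with the edgeR F test 43, 34, 21 and 34. With edgeR against a change of 1 they were 10 between ON-BC and OFF-BC and 17 between rods and blue cones. Calls over all regions were not counted under these other tests, so these rises cannot be set beside that of all regions. Over all genes, calls in the same order were 6112, 5092, 919 and 2231 as reported, 11156, 10704, 3783 and 8068 with limma against no change and 11110, 10734, 4025 and 8128 with the edgeR F test. Leaving out 1 library gave 16 to 24, 12 to 21, 4 to 7 and 3 to 10 regions in the same order of comparisons, and 6 to 7, 6 to 7, 1 to 1 and 2 to 2 members. The lowest were 12 without pan-BC replicate 2 and 3 without blue cone replicate 2, and the regions also fell to 13 without pan-BC replicate 1 or blue cone replicate 2 (pan-BC against blue cones) and to 4 without rod replicate 1 and 5 without blue cone replicate 1 (rods against blue cones).

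Values that changed sign were all uncalled. *Otx2* between rods and blue cones became -0.032 with scaling to the library total, and leaving out 1 library gave -0.017 (without blue cone replicate 1) to 0.076, with -0.0086 without rod replicate 2. *Rax* between ON-BC and OFF-BC ran from -0.22 (without ON-BC replicate 1, and -0.18 without OFF-BC replicate 1) to 0.58, and between rods and blue cones from -0.44 to 0.20 (without blue cone replicate 3). *Six3* between ON-BC and OFF-BC ran from -0.046 (without OFF-BC replicate 1) to 0.43. *Sebox* between rods and blue cones ran from -0.098 to 0.098 (without rod replicate 1), with 0.05 without blue cone replicate 3.

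Same-numbered ON-BC and OFF-BC libraries share a postnatal age in the labels (43, 48 and 42 days in RNA-seq, 42 and 46 in ATAC-seq), but the labels name no shared mouse, litter or sort. Deviations of same-numbered libraries correlated at -0.08, 0.22 and -0.06 in RNA-seq, so whether the numbers pair the samples is not settled. With the replicate number as a replicate block, 7, 7, 1 and 2 members and 24, 20, 6 and 10 regions were called, and within ON-BC and OFF-BC alone 1 member and 7 regions. Neither block removed a call of a member or of its regions.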
